A study of Mus musculus with 3 samples.

Results

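The integrin genes Itgae, Itga1, Itga4, Itgal, Itgav, Itgb1, Itgb2 and Itgb7 were followed in single-cell RNA sequencing of mouse CD8 T cells. These 8 genes were taken by name. They are 8 of the 26 integrin genes and of the 31053 genes in the count matrices, and all 8 were found in every matrix. The cells were P14 cells, whose transgenic T cell receptor recognizes the peptide GP33 of LCMV, the lymphocytic choriomeningitis virus. They were of the strain C57BL/6 and labelled as wild type (WT). Naive CD44- GFP+ P14 cells of TCF-1-GFP reporter mice had been given to mice 8 days after B16.Gp cells, a B16.F10 melanoma line made to express the LCMV glycoprotein. The first library was made from the draining lymph node of the tumour (TdLN) and the second from blood (PBMC). For both, CD8 T cells positive for CD45.1 and CD44 were sorted 16 days after the transfer. The third, called memory here, held cells of day 200 after acute LCMV infection, from CD8 T cells sorted for CD45.1, CD44 and CD127, among other markers, and negative for KLRG1. The labels give neither the tissue of the memory cells nor the number of mice behind a library, and tumour-infiltrating cells named in the study design were not analysed here. Each group had 1 library, so the tissue, the day, the sort and the preparation cannot be told apart. In comparisons with memory, neither can the tumour or infection setting. Groups were not tested against each other.

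Integrins are cell surface receptors made of an alpha and a beta chain, each from its own gene. The chain encoded by Itgal pairs with that of Itgb2 to form LFA-1, which binds ICAM proteins on other cells. The Itga4 chain pairs with either Itgb1, forming VLA-4, a receptor for VCAM-1 and fibronectin, or Itgb7, forming a receptor for the gut addressin MAdCAM-1. The Itgae chain (CD103) pairs with Itgb7 and binds E-cadherin of epithelial cells. The Itga1 chain (CD49a) pairs with Itgb1 and binds collagen, and the Itgav chain pairs with several beta chains, among them Itgb1. Both CD103 and CD49a are widely used as surface markers of tissue-resident CD8 T cells.

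The values are counts of unique molecular identifiers (UMIs), which mark single captured RNA molecules. Cells needed 500 or more genes and no more than 10% mitochondrial counts, and after other cell types were left out, 6091 TdLN, 5632 PBMC and 6994 memory T cells remained. They held 68700985, 48870780 and 70048825 counts, with medians of 9745, 7118.5 and 9956.5 UMIs per cell. Summed counts are given per 1000000 counts of the library's T cells (CPM), with exact Poisson 95% intervals, and shares of cells have Clopper-Pearson 95% intervals. These intervals cover counting error only, not variation between mice. A count of 0 allowed up to 0.0437, 0.0614 and 0.0428 CPM (3 counts) in TdLN, PBMC and memory. For shares, each cell was thinned at random to 4200 UMIs, which left 5999, 5131 and 6723 cells and dropped 92, 501 and 271 shallower ones. The 6 T cell markers were each at 20 CPM or more in all libraries, and the summed CD4 T cell, neutrophil and melanoma markers were at 3.35 CPM or less. Other lists had counts among the T cells. B cell markers summed to 266, 109 and 39.8 CPM in TdLN, PBMC and memory, with Ms4a1 and Pax5 among those at 0 in PBMC. Macrophage, monocyte or dendritic markers summed to between 88.9 and 116 CPM, with 1 of 12 at 20 CPM in each library, and stromal or endothelial markers to 38.5, 18.5 and 18.7. Erythroid or platelet markers summed to 4.41, 24.1 and 1.77 CPM. Gamma delta T or NK markers summed to between 1441 and 1878 CPM, with 2 of 7 at 20 CPM or more in each library. The part of these cells or RNAs in the results was not tested. Kept cells of different libraries shared 6, 10 and 15 barcodes (TdLN with memory, PBMC with memory, TdLN with PBMC).

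The PBMC library went partly against its label. The P14 receptor uses the beta chain segment Trbv13-3, but 31.2% of the beta V segment UMIs of PBMC T cells came from other segments, against 10.9% in TdLN and 4.50% in memory. Within PBMC the share was 72.1% in clusters with raised effector genes and 13.5% in the rest. These effector-named clusters (numbers 3, 6 and 11) held 53.4% of the T cells in PBMC, 0.378% in TdLN and 2.59% in memory. Cluster 3 also met the marker rule for gamma delta T or NK cells, through Tcrg-C2, Klrb1c and Nkg7. PBMC levels are therefore also given without these clusters (2627 cells) and for cells with UMIs of Trbv13-3 alone (955 cells).

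The genes lie on 7 chromosomes of the mouse assembly GRCm38 (GENCODE M21). Itgae (ENSMUSG00000005947) spans chr11:73090583-73147446 on the plus strand, Itgal (ENSMUSG00000030830) chr7:127296260-127335138 plus, Itgav (ENSMUSG00000027087) chr2:83724397-83806916 plus and Itga4 (ENSMUSG00000027009) chr2:79255426-79333123 plus. Itgb1 (ENSMUSG00000025809) spans chr8:128685654-128733200 plus, Itgb2 (ENSMUSG00000000290) chr10:77530252-77565708 plus and Itgb7 (ENSMUSG00000001281) chr15:102215995-102231944 minus. Itga1 (ENSMUSG00000042284) spans chr13:114953096-115101964 minus and overlaps Pelo and Gm49395 on that strand, so some reads could be assigned to either gene. Pelo, looked up after the values were seen, had 1.21 CPM in TdLN, 2.54 in PBMC and 3.2 in the memory library.

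Promoters were available from RefSeq (GRCm38.p6) for 5 of the 8 genes, each from 250 bases before to 50 bases after the start. Those of Itga4 and Itga1 are shown because these 2 alpha chain genes were both lowest in TdLN and followed each other across clusters. RUNX (TGTGGT, which reads ACCACA on the other strand) and T-box (GGTGTG, which reads CACACC there) motifs were searched on both strands and are in capitals. The Itga4 window, chr2:79255176-79255475 plus, holds a T-box match 165 bases before the start and, in 1 overlapping run, a RUNX match 60 and a T-box match 58 bases before it. The Itga1 window, chr13:115101915-115102214 minus, has none of these letters.
Itga4: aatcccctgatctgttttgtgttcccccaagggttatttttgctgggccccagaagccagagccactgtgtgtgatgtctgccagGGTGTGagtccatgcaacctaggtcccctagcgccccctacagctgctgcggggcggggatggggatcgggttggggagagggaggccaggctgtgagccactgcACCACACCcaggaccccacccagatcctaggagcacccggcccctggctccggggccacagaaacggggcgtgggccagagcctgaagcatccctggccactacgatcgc
Itga1: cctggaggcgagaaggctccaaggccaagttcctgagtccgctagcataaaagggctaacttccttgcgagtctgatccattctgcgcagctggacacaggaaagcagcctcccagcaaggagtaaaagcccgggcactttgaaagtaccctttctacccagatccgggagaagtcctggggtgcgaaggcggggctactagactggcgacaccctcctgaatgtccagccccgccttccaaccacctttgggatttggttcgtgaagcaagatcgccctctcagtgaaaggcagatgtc
Of 32851 RefSeq mouse promoters of this length, 5506 (16.8%) hold the RUNX letters and 6257 (19.0%) the T-box letters. The Itgb7 and Itgav windows hold 1 T-box match each and the Itgb1 window neither motif. A match describes these letters only and is not evidence of binding. The genes Itgae, Itgal and Itgb2 are named without a promoter.

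Over all T cells, the 3 alpha chain genes Itgae, Itga1 and Itga4 were over 2-fold apart in TdLN over memory. Itgal, Itgav and the 3 beta chain genes then stayed within 2-fold in each comparison, though Itgb1 passed it under other choices of cells. A gene was counted as apart at a ratio of at least 2-fold where the higher of the 2 levels reached 20 CPM. In TdLN over memory, 7 of the 8 genes reached that level. Of these, 1 was at least 2-fold higher in TdLN (Itgae), against 4.0% of all 4622 genes compared, and 2 were at least 2-fold lower (Itga1 and Itga4), against 1.86%. In PBMC over memory, 6 reached it. There, 0 stood higher by 2-fold or more (1.69% of all 4379 genes did) and 1, Itga1, lower (0.617%). In TdLN over PBMC, 6 reached it, with Itgae higher (2.71% of all 4581 genes) and Itga4 lower (1.94%). The median log2 ratios of the measured integrin genes were -0.30, 0.05 and -0.41, beside medians of 0.16, 0.04 and 0.11 over all genes. Under TMM scaling, an alternative that sets the bulk of genes to no change, the all-gene medians became 0.03, 0.03 and -0.00. The share of higher genes among all genes at least 2-fold apart then went from 68.3% to 55.7% in TdLN over memory and from 58.2% to 47.1% in TdLN over PBMC. The counts of integrin genes did not change. Both comparisons with memory use the same memory library.

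**Figure D1:**
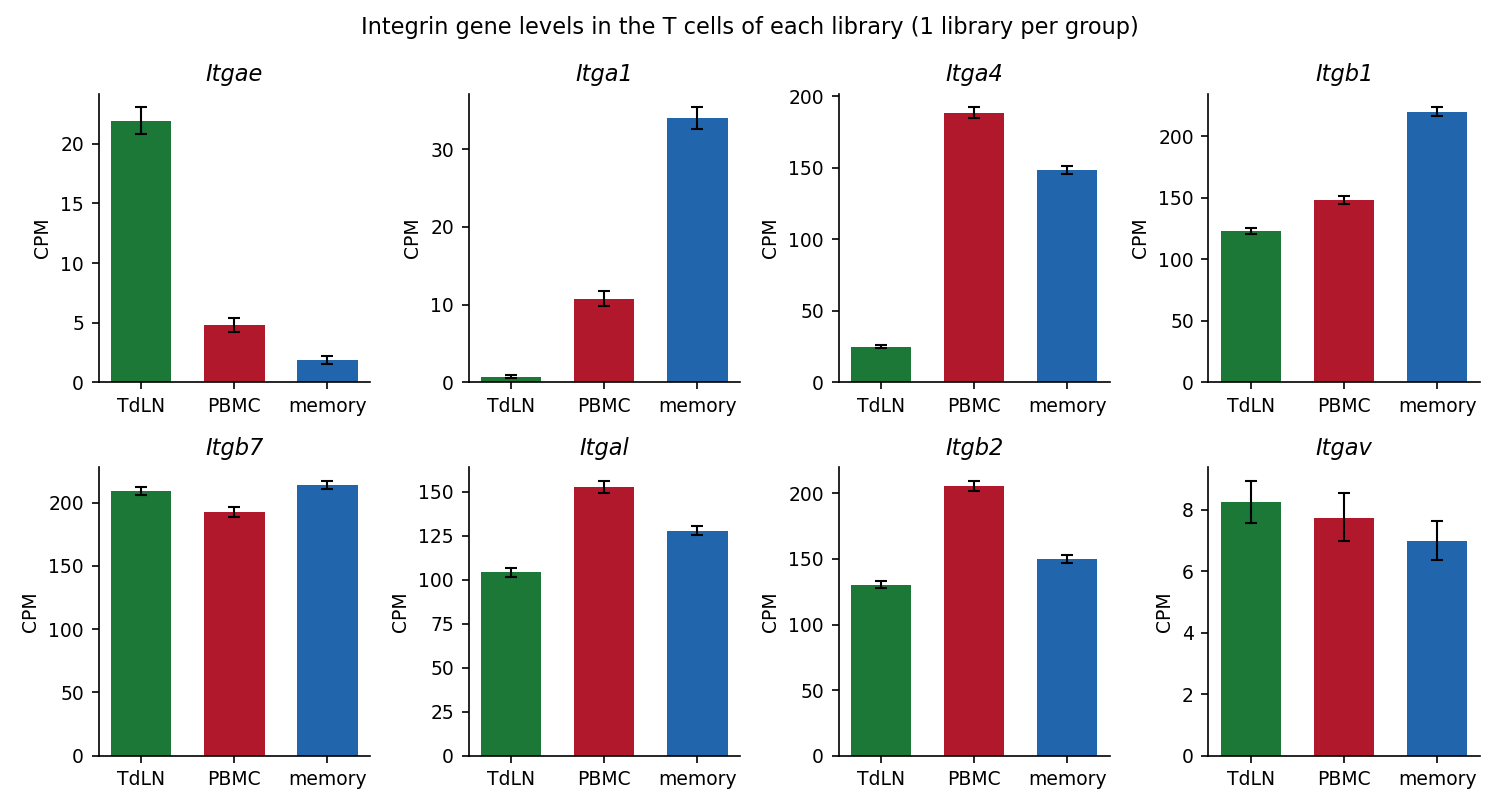
Level of each of the 8 integrin genes in CPM (vertical axis, from 0, own scale per gene) in the T cells of the TdLN, PBMC and memory libraries, 1 library per bar, with exact Poisson 95% intervals for counting error. Itgae is highest in TdLN (21.9 CPM), Itga1 in memory (34 CPM) and Itga4 lowest in TdLN (24.9 CPM), while Itgb7 lies between 193 and 214 CPM.

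Itgae, the alpha chain of the E-cadherin receptor, was a TdLN gene in these libraries. It was at 21.9 CPM (20.8–23.1) in TdLN, 4.77 (4.18–5.42) in PBMC and 1.83 (1.52–2.17) in the memory library. The 3 intervals did not overlap. TdLN was 12-fold above memory (log2 3.59, 3.32 to 3.86) and 4.6-fold above PBMC (log2 2.20, 2.0 to 2.41). PBMC was 2.61-fold above memory, a ratio between 2 levels under 20 CPM that was not counted. At 4200 UMIs per cell, the share of T cells with an Itgae UMI was 8.18% (7.50–8.91) in TdLN, 1.66% (1.33–2.04) in PBMC and 0.714% (0.527–0.945) in memory. Most TdLN T cells thus gave no Itgae molecule at this depth. Unthinned, the TdLN share was 16.4%, from 694 cells with 1 UMI, 189 with 2 and 115 with 3 or more, and the highest cell had 10. The macrophage-like and B-like TdLN cells left out of the analysis gave 2.75% (3 of 109 cells, median 2332 UMIs) and 3.08% (65 cells, median 4462 UMIs), at lower depth than the T cells' median of 9745. The unthinned PBMC and memory shares were 3.27% and 1.74%, and neither library had a left-out cluster of 50 cells to set beside them.

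Itga1, the alpha chain of the collagen receptor, showed the reverse order. It was at 0.655 CPM (0.478–0.876) in TdLN, 10.7 (9.84–11.7) in PBMC and 34 (32.7–35.4) in the memory library. The TdLN level came from 45 UMIs in 32 of 6091 cells. TdLN was 51.9-fold below memory (log2 -5.70, -6.16 to -5.27) and PBMC 3.17-fold below it (log2 -1.66, -1.80 to -1.53). TdLN was 16.4-fold below PBMC (log2 -4.04, -4.51 to -3.59), but both of those levels were under 20 CPM. After thinning, 12.6% (11.9–13.5) of memory cells, 5.36% (4.76–6.01) of PBMC cells and 0.217% (0.115–0.370) of TdLN cells had a UMI. The unthinned TdLN share was 0.525%, beside 0.917% (0.0232–5.01, 1 of 109 cells, median 2332 UMIs) in the macrophage-like and 0 of 65 in the B-like cells left out of that library. These few, shallower cells leave the background too uncertain to compare. Without the 23 TdLN cells of effector-named clusters, 33 of the 45 UMIs remained, at 0.481 CPM. The unthinned memory share was 24.3%, from 1207 cells with 1 UMI, 352 with 2 and 138 with more.

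Itga4, the alpha chain shared by the VCAM-1 and MAdCAM-1 receptors, was low only in TdLN among the 3 libraries. It was at 24.9 CPM (23.8–26.1) in TdLN, 189 (185–192) in PBMC and 148 (145–151) in the memory library. TdLN was 5.95-fold below memory (log2 -2.57, -2.65 to -2.50) and 7.57-fold below PBMC (log2 -2.92, -2.99 to -2.84). PBMC was 1.27-fold above memory (log2 0.35, 0.31 to 0.39). After thinning, the share of cells with a UMI was 9.85% in TdLN, 49.3% in PBMC and 42.5% in memory. Unthinned shares were 20.2%, 64.5% and 66.8%, and the order of PBMC and memory in them went against the CPM, so no order is read from it. B-like TdLN cells gave 38.5% at a median of 4462 UMIs, above the TdLN T cells, and macrophage-like cells 8.26%.

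The partner chains of Itga4 moved less. Itgb1 was at 123 CPM (120–125) in TdLN, 148 (145–152) in PBMC and 220 (217–224) in the memory library. Memory stood above both other libraries, with log2 ratios of -0.84 for TdLN and -0.57 for PBMC over memory, both short of 2-fold. The thinned shares followed the same order, 30.9%, 40.4% and 56.6%. Macrophage-like cells of TdLN gave an Itgb1 share of 34.9% at a median of 2332 UMIs, and B-like cells 13.8%. Itgb7, the partner of both Itgae and Itga4, was at 209 CPM (206–213) in TdLN, 193 (189–197) in PBMC and 214 (210–217) in the memory library. Its log2 ratio of TdLN over memory was -0.03 (-0.07 to 0.00), an interval that reaches 0, although Itgae differed 12-fold between those libraries. The thinned shares of cells with an Itgb7 UMI were 56.6%, 55.0% and 58.0%, and the left-out macrophage-like and B-like cells of TdLN gave 14.7% and 38.5% unthinned.

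Both chains of LFA-1 were highest in PBMC over all T cells, and lowest there without the effector-named clusters. Itgal was at 104 CPM (102–106) in TdLN, 153 (149–156) in PBMC and 128 (125–130) in the memory library. Itgb2 was at 130 CPM (127–133) in TdLN, 206 (202–210) in PBMC and 150 (147–153) in the memory library. The 2 genes kept the same order of libraries, with PBMC 1.2-fold and 1.37-fold above memory and 1.47-fold and 1.58-fold above TdLN. Thinned shares were 32.8%, 47.7% and 40.1% for Itgal and 40.7%, 55.6% and 46.5% for Itgb2. Without the effector-named clusters, Itgal was at 104, 79.7 and 125 CPM and Itgb2 at 130, 102 and 147 in TdLN, PBMC and memory. The left-out macrophage-like cells had unthinned shares of 20.2% and 44.0%, and the B-like cells 16.9% and 21.5%.

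Itgav was low and near level. It was at 8.24 CPM (7.57–8.95) in TdLN, 7.73 (6.97–8.56) in PBMC and 6.98 (6.38–7.63) in the memory library, under 20 CPM throughout. The PBMC interval overlapped both others, and the log2 ratio of TdLN over memory was 0.24 (0.06 to 0.42). Its thinned shares were 3.52%, 3.55% and 2.86%, and its unthinned TdLN share of 8.54% was below the 12.8% and 16.9% of macrophage-like and B-like cells.

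None of the other 18 integrin genes reached 20 CPM in any library. The following 3 were chosen after their values were seen. Itga6, a laminin receptor chain, was at 19.4, 16.8 and 18.3 CPM in TdLN, PBMC and memory. Itgax (CD11c) was at 0.830 CPM in TdLN, 15.4 in PBMC and 15.8 in the memory library, low in TdLN as Itga1 and Itga4 were. Itga2b, the platelet chain CD41, was at 1.76 CPM in PBMC, with 27.6 in the 318 cells that carried a platelet UMI and 0.217 in the others.

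The make-up of the PBMC library bore on most of its ratios. Without the effector-named clusters, PBMC levels were 1.73 CPM for Itga1, 66.4 for Itga4, 80.4 for Itgb1, 79.7 for Itgal and 102 for Itgb2. Each was lower than over all PBMC T cells, by 6.22-fold for Itga1 and 2.84-fold for Itga4. Over memory, whose effector-named clusters were left out as well, log2 ratios became -4.23 for Itga1, -1.13 for Itga4 and -1.44 for Itgb1, so that 3 genes in place of 1 were at least 2-fold lower in PBMC. The signs for Itga4, Itgal (-0.65), Itgb2 (-0.53) and Itgav (-0.19) turned. Cells with UMIs of Trbv13-3 alone gave 2.16 CPM for Itga1 and 88.6 for Itga4, with log2 ratios over memory of -3.96 and -0.73, and turned the same 4 signs, with Itgal at -0.45, Itgb2 at -0.37 and Itgav at -0.22. Of these 955 PBMC cells, 141 lay in the effector-named clusters, which held 53.4% of all PBMC T cells. In those clusters 2459 cells had no segment UMI. Both choices thus left out most effector-named cells, and 1 is not an independent check of the other. In TdLN over PBMC, Itgb1 turned from -0.27 to 0.61 without the effector-named clusters and 0.38 in Trbv13-3 cells. Itgal went from -0.55 to 0.38 and 0.16, and Itgb2 from -0.66 to 0.35 and 0.20. Itgae kept its direction, at 1.90 and 2.28, as did Itga4, at -1.43 and -1.83. In TdLN over memory both choices of cells left the direction of all 8 genes as it was.

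**Figure D2:**
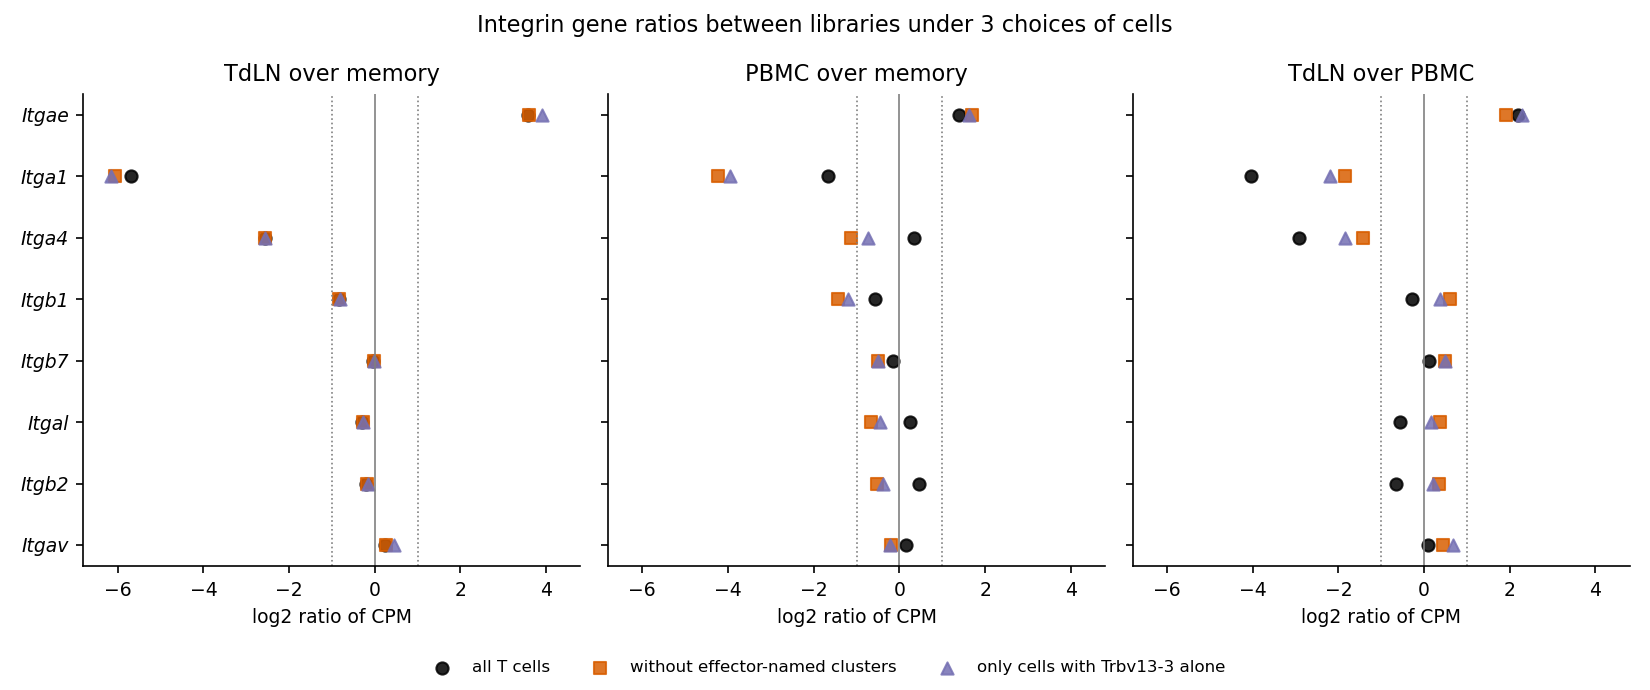
Log2 ratio of each integrin gene (rows) in the 3 comparisons (panels), over all T cells (circles), without the effector-named clusters (squares) and in cells with UMIs of Trbv13-3 alone (triangles), with dotted lines at 2-fold either way. The TdLN over memory symbols nearly coincide, whereas in PBMC over memory Itga4 goes from 0.35 to -1.13 and -0.73.

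Within the PBMC effector-named clusters, the level could be split by receptor segment. Cells with UMIs of Trbv13-3 alone (141 cells) had 19.6 CPM of Itga1 (11.4–31.4, 17 counts), and those with other segments alone (381 cells) had 30.4 (23.8–38.3). These intervals overlapped. For Itga4 the levels were 376 CPM (336–419) and 452 (426–480), higher in cells with other segments. Itgb1 was at 306 CPM (271–346) and 249 (229–270), higher in the Trbv13-3 cells. Outside those clusters, 814 cells with Trbv13-3 alone had 0.683 CPM of Itga1 and 64.3 of Itga4, and 112 cells with other segments alone had 4.01 and 77.5. High Itga1 and Itga4 thus went with the effector-named clusters in cells of either segment class.

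Joint clustering, from which the 8 genes were left out, gave 17 pairs of cluster and library with at least 50 T cells. The largest TdLN cluster was number 0 (4256 cells, led by Fos, Igfbp4 and Junb), and the largest memory clusters were 1 (Ier3, S100a6, Lars2) and 2 (Camk2n1, Il18r1, S100a6). PBMC was mainly clusters 3 (2193 cells, led by Gzma, Cx3cr1 and Klrg1), 4 (2146 cells, led by Ccr7 and Fam241a) and 6 (811 cells, led by Serp2, S100a4 and Lgals3). Most clusters were held by 1 library, so a cluster may be that library rather than a state.

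Itgae was found in all 5 TdLN clusters with at least 50 cells, at unequal levels. Cluster 5, led by Izumo1r, Ctla4, Ikzf2 and Myb, had 41.8 CPM (37.8–46.2), and 14.4% (11.9–17.1) of its thinned cells had a UMI, 108 of 752. It gave 26.2% of the Itgae UMIs of TdLN and 13.7% of all its UMIs. Cluster 0 had 20.2 CPM and 7.56% of cells, cluster 7, led by the interferon-induced genes Rsad2 and Ifit1, 23.6 CPM and 7.96%, and cluster 8, led by the cell cycle genes Pclaf and Birc5, 11.9 CPM and 5.08%. Cluster 4 (79 cells) had 2.98 CPM (0.36–10.8), from 2 UMIs. Clusters 0, 5, 7 and 8 lay above the memory units with over 1000 cells, which were at 1.70 and 1.88 CPM. The PBMC cells of cluster 5 (136 cells) had 3.73 CPM (1.37–8.12), a log2 ratio of TdLN over PBMC of 3.49 (2.35 to 4.94) within that cluster. In cluster 7, TdLN was likewise above memory, by 2.52 on the log2 scale (1.13 to 4.42), and above PBMC by 1.74. In cluster 4 the log2 ratio of TdLN over PBMC was -0.99 (-4.05 to 0.89), an interval that includes 0. In PBMC, cluster 4 had the bulk of the UMIs (69.1%) at 5.90 CPM, and the effector-named clusters 3 and 6 had 3.29 and 1.46 CPM. Without cluster 5, which was left out after its level was seen, Itgae was at 18.8 CPM over the TdLN T cells, under the 20 CPM needed to be counted, and the log2 ratio over memory was 3.36.

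Itga1 was found in all 6 memory clusters with at least 50 cells, at 22.5 CPM or more, and mainly in the effector-named clusters of PBMC. In memory it was at 25.8 CPM in cluster 1 and 41.0 in cluster 2, with 10.2% and 14.5% of thinned cells. The highest level was in cluster 11 of memory, 91 cells led by P2rx7, Ckb and Atp8a2, at 171 CPM (140–207). There 54.8% (43.5–65.7) of cells, 46 of 84, had a UMI, and the cluster gave 4.41% of the memory Itga1 UMIs with 0.875% of all UMIs. In that cluster, levels over all its cells were 616 CPM for the residency chemokine receptor gene Cxcr6, 97.9 for Cd69, 3.26 for Ccr7 and 6.52 for Zfp683, the last chosen after its value was seen. Itgae was at 4.89 CPM there, from 3 UMIs. The memory cells of cluster 3 (71 cells) had 114 CPM of Itga1 (82.0–154) and 501 of Itga4. PBMC cells of the same cluster were at 29.8 CPM (26.7–33.1), a log2 ratio of PBMC over memory of -1.93 (-2.40 to -1.44), while that of Itga4 was -0.18 (-0.39 to 0.04). Over the effector-named clusters together, 72.1% of beta V segment UMIs in PBMC and 5.97% in memory were not Trbv13-3. The 2 sides of cluster 3 may thus hold different cells, and the bearing of this on the ratios was not tested. PBMC clusters 3 and 6 gave 65.5% and 23.6% of that library's Itga1 UMIs, and cluster 4 was at 1.25 CPM. In TdLN, cluster 5 had 0 Itga1 counts, which allows up to 0.318 CPM, and cluster 0 was at 0.642. Itgae and Itga1 UMIs were seen together after thinning in 0 of 5999 cells of TdLN, 5 of 5131 of PBMC (0.0974%) and 11 of 6723 of memory (0.164%).

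Itga4 and Itgb1 also varied by cluster. Itga4 was at 443 CPM in PBMC cluster 3, 362 in PBMC cluster 6 and 501 in memory cluster 3, and at 57.0 in PBMC cluster 4. All 5 TdLN units lay between 10.5 and 47.6 CPM, below each PBMC and memory unit. In cluster 4, which both hold, TdLN and PBMC differed in Itga4 by -0.26 on the log2 scale, an interval (-0.81 to 0.25) that includes 0, and in clusters 5 and 7 by -1.89 and -1.80. Itgb1 was at 653 CPM in memory cluster 3, 307 in PBMC cluster 3 and 279 in PBMC cluster 5, and lowest in PBMC cluster 4 at 62.5. Within cluster 3, the log2 ratio of PBMC over memory was -1.09 (-1.28 to -0.90) for Itgb1, whereas those of Itgal and Itgb2 were -0.03 and 0.07. The limit on receptor segments given above holds for these ratios too. Over the 17 units Itgb7 ranged from 141 to 360 CPM, Itgal from 59.5 to 341, Itgb2 from 84.8 to 464 and Itgav from 5.54 to 19.6.

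**Figure D3:**
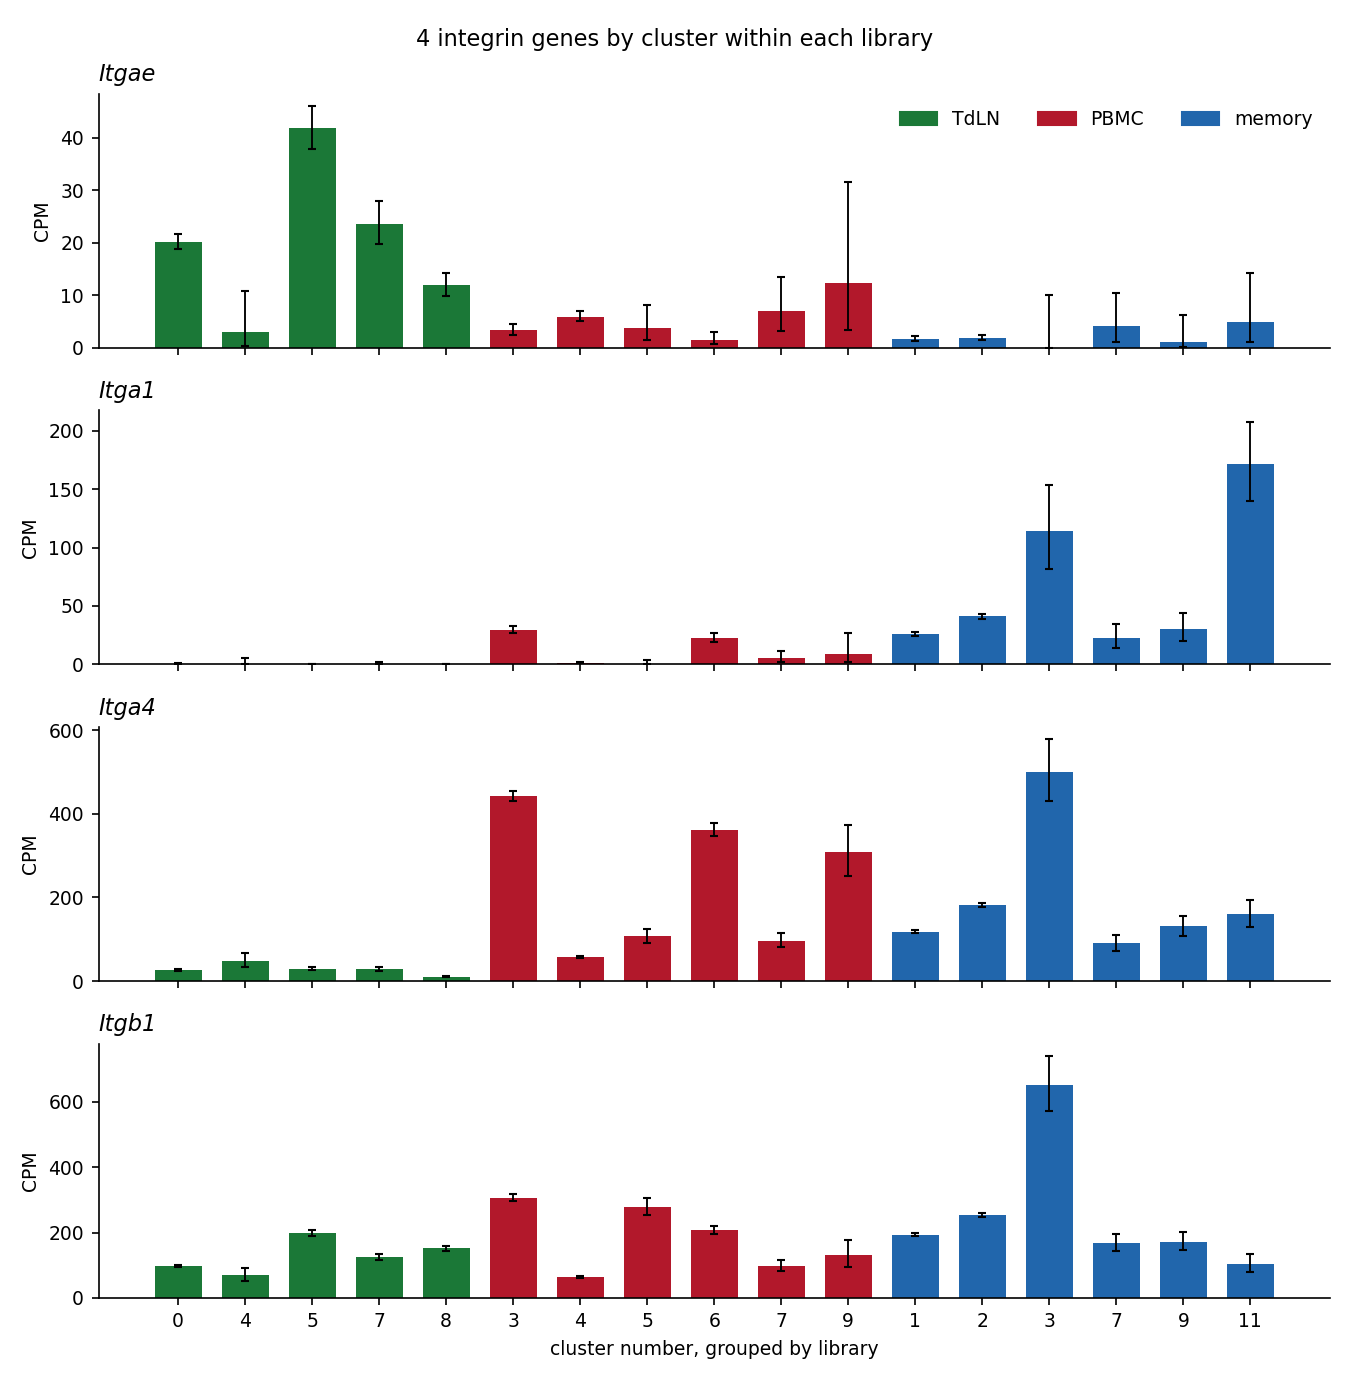
Level of Itgae, Itga1, Itga4 and Itgb1 in CPM (vertical axes, from 0) in each of the 17 pairs of cluster and library with at least 50 T cells (horizontal axis, cluster numbers by library), with exact Poisson 95% intervals. Itgae peaks in TdLN cluster 5 (41.8 CPM), Itga1 in memory cluster 11 (171 CPM), and Itga4 and Itgb1 in memory cluster 3 (501 and 653 CPM).

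Across these 17 units, which share libraries and differ in depth, Itgal and Itgb2 had the closest patterns among the known pairs, with a Pearson r of 0.98 on log2(CPM + 1). Itga1 and Itga4, which do not pair, had r = 0.79. The pairs with Itgb1 gave 0.47 (Itga1) and 0.54 (Itga4), and those with Itgb7 gave 0.42 (Itga4) and -0.26 (Itgae). Itga1 had higher values with Itgal (0.73) and Itgb2 (0.70), which are not its partners, as Itga4 did (0.71 with each). Over these units, which differ by library, Itgae went against Itga1 (-0.69) and Itga4 (-0.69). Among 6107 genes, the closest to Itgae were Dusp6 (0.91), a phosphatase acting on ERK, Nfkbiz (0.88), Ppic (0.85), Gdap10 (0.84) and Skil (0.84), a regulator of SMAD proteins. For Itga1 they were Ptprj (0.95), Khnyn (0.95), Ptpn4 (0.93) and Mir142hg (0.93). For Itga4 they were Rora (0.94), Gna15 (0.93), Fcho2 (0.93), Ncald (0.93) and Dock5 (0.93), and for Itgal the first was Itgb2, then the formin gene Diaph1 (0.97) and the granzyme inhibitor gene Serpinb9 (0.96). These values describe units of 3 libraries and carry no test.

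Cells with and without an Itgae UMI were compared in TdLN (491 and 5508 thinned cells, 1991 genes). Cells with an Itgae UMI had more Ramp1 (58.7 against 24.6 CPM, 2.39-fold), Rgcc (117 against 58.7, 1.99-fold), Timp2 (56.7 against 28.9, 1.96-fold) and Mxd4 (1.77-fold). Tox, a transcription factor of chronically stimulated T cells, was 1.51-fold higher, and Znrf1, Rgs10 and H2-DMa 1.5-fold, 1.47-fold and 1.44-fold. They had less Klrk1, the NKG2D receptor gene (15 against 53.9 CPM, 3.58-fold), Ccl5, a chemokine gene (301 against 916, 3.04-fold), Hopx (1.92-fold), Eomes, a memory and effector transcription factor (1.61-fold), and Gpr183 (1.61-fold). Without cluster 5, a choice made after its level was seen, the ratios were 2.22 for Ramp1, 1.94 for Timp2 and 1.93 for Rgcc, and Klrk1 and Ccl5 were 5.15-fold and 2.93-fold lower. Tox and H2-DMa were then no longer among the 8 highest, nor Eomes and Gpr183 among the 5 lowest, where S100a6 (3.21-fold) and Ahnak (1.76-fold) took their place. Of 7 measured residency genes 3 were higher (median log2 ratio -0.12), and of 8 TGF-beta receptor and signal genes 6 were (median 0.10), with 0 at least 2-fold apart in either list. Of 5 measured integrin genes 3 were higher (median 0.14). These counts are given without a share over all 1991 genes and are not read as traits of the lists. Itga4 was at 40.2 against 26.2 CPM (ratio 1.54, 1.21 to 1.94), unlike its pattern across units, and Itgb1 was lower, at 106 against 122. Without cluster 5 the Itga4 ratio was 1.82 (1.41 to 2.33). Before thinning, the 998 TdLN T cells with an Itgae UMI had a median of 10276.5 UMIs and the others 9620. These sets are not the thinned cells compared here.

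In PBMC the genes that went with Itga1 were those of the effector-named clusters. Cells with an Itga1 UMI (275 against 4856, 2181 genes) had more of the NK receptor gene Klrb1c (3.09-fold), Camk2n1 (2.59-fold), Kcnj8 (2.44-fold), Gzma (4248 against 1750 CPM, 2.43-fold), Cish (2.40-fold), Cxcr6 (298 against 126, 2.36-fold), Gzmb (508 against 220, 2.31-fold) and Zmiz1 (2.29-fold). They had less Dapl1 (23.9-fold), Ccr7 (13.9 against 164 CPM, 11.9-fold), Actn1 (6.01-fold) and Rgs10 (5.53-fold). Within the effector-named clusters, 258 against 2368 cells, the most extreme ratios were 1.67 for Klrb1c and 1.68-fold lower for Serpina3g. Of 7 residency genes, 3 were at least 2-fold higher over all PBMC T cells (Cxcr6, Prdm1 and Bhlhe40) and Cd69 was lower (60.6 against 134 CPM). Within the effector-named clusters 0 were at least 2-fold apart, and Cxcr6 was at 308 against 233 CPM. No share over all genes compared stands beside these counts, so they are not read as a trait of the list. Before thinning, the 405 PBMC T cells with an Itga1 UMI had a median of 5760 UMIs and the others 7469, sets that include cells too shallow to thin.

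In memory, cells with an Itga1 UMI (850 against 5873, 1812 genes) had more Gzmb (68.9 against 26.4 CPM, 2.61-fold), Ccl4 (2.14-fold), Lgals3 (55.5 against 28.3, 1.96-fold), Cd160 (1.60-fold), S100a4 (365 against 248, 1.47-fold), Xcl1 (1.46-fold), Cxcr6 (258 against 183, 1.41-fold) and Mxd4 (1.40-fold). The lowest ratios were small, with Pdlim1 1.34-fold and Tuba4a 1.24-fold lower. Without the 84 thinned cells of cluster 11, chosen after its level was seen, Lgals3 was 2.03-fold, S100a4 1.52-fold and Cxcr6 1.32-fold higher, and the other 5 named genes were no longer among the 8 highest at 50 CPM or more. Depth was similar over the unthinned memory T cells, at medians of 9899 UMIs in the 1697 with an Itga1 UMI and 9981 in the others.

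Pairing of alpha and beta chains was read within cells, as the share of cells with a beta UMI among cells with and without an alpha UMI after thinning. Genes that are not partners were not read in this way, so whether a difference was particular to a pair was not tested. In cells with an Itga1 UMI, all 5 measured integrin genes were higher in PBMC and in memory (median log2 ratios 0.73 and 0.23). Within the PBMC effector-named clusters 4 of 5 were higher (median 0.08), and in memory without cluster 11 all 5 were (median 0.18). All-gene shares were not set beside these counts, so they are not read as particular to integrin genes. In PBMC, 67.5% (65.6–69.4) of cells with Itgal had Itgb2 and 44.8% (42.9–46.7) of those without. Itgb1 was seen in 51.3% against 29.8% of cells with and without Itga4 and in 60.0% against 39.3% with and without Itga1. Itgb7 was seen in 61.7% against 48.6% with and without Itga4. The intervals of each of these 4 pairs did not overlap. Without the effector-named clusters, the differences read for Itgal and Itga4 were smaller. They went from 22.7 to 6.83 percentage points for Itgal with Itgb2, from 21.5 to 5.54 for Itga4 with Itgb1 and from 13.1 to 3.61 for Itga4 with Itgb7. Within PBMC cluster 3, Itgb2 was seen in 83.1% of 1369 cells with Itgal and 81.9% of 498 cells without, and Itgb1 in 60.8% and 62.5% of cells with and without Itga4. For cells with and without Itga1, Itgb1 was in 62.6% and 61.0% in that cluster and in 50% and 46.8% in PBMC cluster 6. Both of these pairs of intervals overlapped. In cluster 4, Itgb2 was in 35.9% and 29.4% of cells with and without Itgal.

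In memory and TdLN the differences were small. In memory, Itgb1 was in 62.4% (59.0–65.6) of cells with Itga1 and 55.7% (54.5–57.0) of those without, and in 59.8% against 54.2% for Itga4. The memory difference for Itga1 stood at 7.34 points in cluster 1 and 6.05 in cluster 2. In TdLN, Itgb1 was in 26.7% (23.2–30.5) of cells with Itga4 and 31.4% (30.1–32.6) of cells without, the reverse direction. Itgb7 was in 59.9% (55.4–64.2) of TdLN cells with Itgae and 56.3% (55.0–57.7) without, in 55.3% and 55.0% in PBMC and in 60.4% and 57.9% in memory. These intervals overlapped in all 3 libraries. The level of Itgb7 in TdLN was nevertheless higher in cells with an Itgae UMI, at 252 against 212 CPM (ratio 1.19, 1.08 to 1.30). Without cluster 5 that ratio was 1.18 (1.06 to 1.31). Itgav with Itgb1 gave 55.5% against 39.8% in PBMC, 29.4% against 31.0% in TdLN and 57.8% against 56.5% in memory. Only 13 thinned TdLN cells had an Itga1 UMI, too few to read. Over units with at least 50 cells on both sides, the difference was positive in 7 of 9 for Itgal with Itgb2, 4 of 4 for Itga1 with Itgb1, 6 of 8 for Itga4 with Itgb7, 4 of 8 for Itga4 with Itgb1, 1 of 2 for Itgae with Itgb7 and 3 of 5 for Itgav with Itgb1. The highest cell-level Pearson r of a pair was 0.30 (Itgal and Itgb2, PBMC, 5131 thinned cells), from sparse counts.

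**Figure D4:**
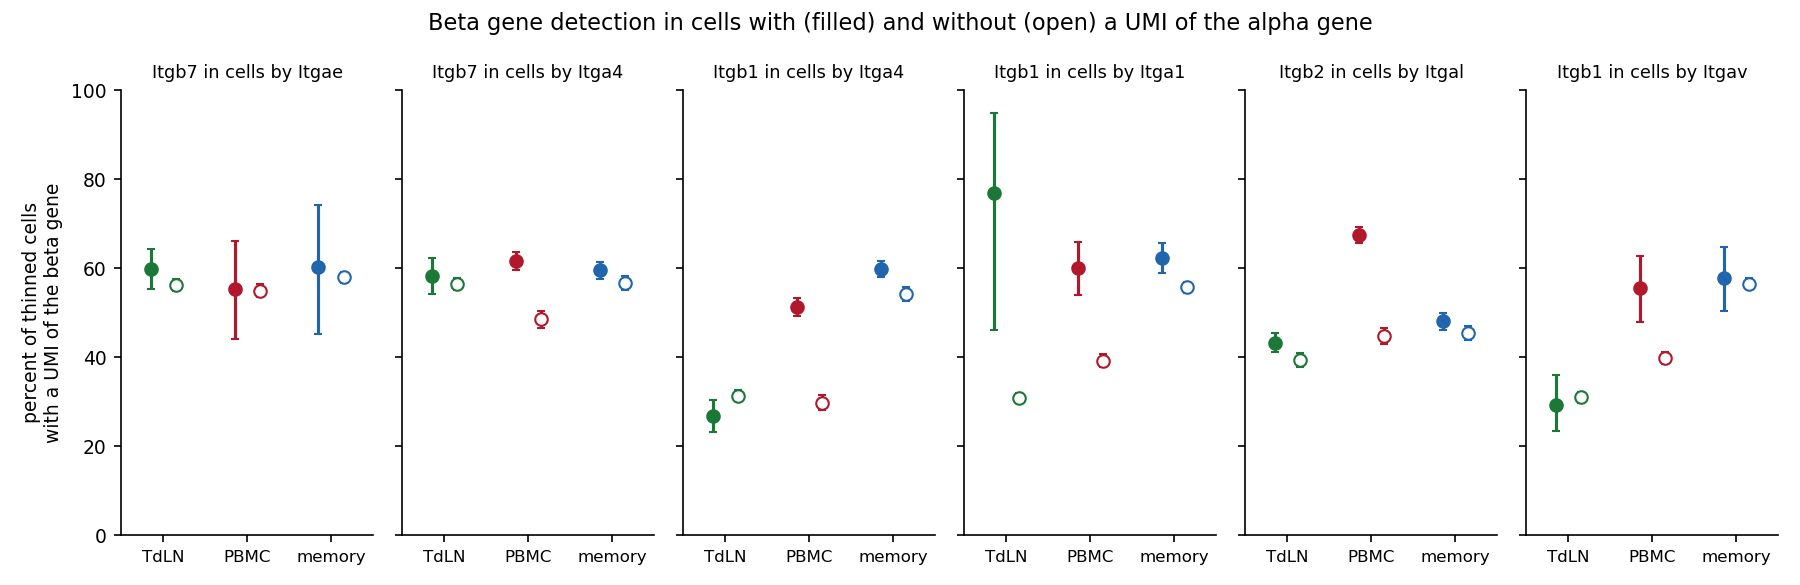
Share of thinned cells (vertical axis, percent) with a UMI of the beta chain gene, among cells with (filled) and without (open) a UMI of the alpha chain gene, for 6 pairs (panels) in the 3 libraries (horizontal axis), with Clopper-Pearson 95% intervals. The PBMC points of Itgal with Itgb2 are farthest apart among the pairs with over 100 cells on both sides (67.5% and 44.8%), and those of Itgae with Itgb7 overlap in every library.

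The beta chain UMIs seen with Itga4 differed by library, as did the share of all T cells with Itgb1. Among the 591 TdLN cells with an Itga4 UMI, 16.8% also had both Itgb1 and Itgb7 UMIs, 9.98% Itgb1 alone, 41.6% Itgb7 alone and 31.6% neither. The 2528 PBMC cells gave 34.2%, 17.0%, 27.5% and 21.3%, and the 2860 memory cells 35.7%, 24.1%, 23.8% and 16.4%. Among the 3 libraries, the share with Itgb1 alone was lowest and that with Itgb7 alone highest in TdLN. Over all thinned T cells, Itgb1 was likewise lowest in TdLN (30.9%, against 40.4% in PBMC and 56.6% in memory). Itgb7 was at 56.6%, 55.0% and 58.0%. The classes were not counted over all T cells, so they are not read as a trait of cells with Itga4. A cell with neither UMI can still express either gene at this depth.

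Measured genes that act on the receptors from inside the cell stayed within 2-fold. Of 25 integrin activation and adaptor genes, which link the beta chain tail to actin and Rap1 signalling, 22 were measured and 0 were at least 2-fold apart in any comparison. Over all genes, 4.0% were higher and 1.86% lower in TdLN over memory, 1.69% and 0.617% in PBMC over memory and 2.71% and 1.94% in TdLN over PBMC, so a count of 0 of 22 lies near the background and shows nothing particular to the list. In TdLN over memory 19 of 22 were higher (median log2 ratio 0.22, all genes 0.16), in PBMC over memory 15 (0.14 against 0.04) and in TdLN over PBMC 13 (0.04 against 0.11). Among the largest differences, the focal adhesion gene Zyx was at 101 CPM in TdLN, 152 in PBMC and 161 in the memory library. The small GTPase gene Rap1a was at 210, 171 and 141 CPM, the kindlin gene Fermt3 at 98.1, 74.6 and 67.4, and the Rap1 activator gene Rasgrp2 at 129, 162 and 99.5. Of 12 ligand genes, most made by other cell types, only Icam1 and Icam2 were measured. Icam1 was at 41.4, 41.7 and 29.6 CPM and Icam2 at 30.8, 38.5 and 36.2, both short of 2-fold.

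TGF-beta signalling is known to induce Itgae in CD8 T cells. Of 14 genes of its receptors and signals, 7 were measured, and 6 of these were higher in TdLN than in memory (median log2 ratio 0.47, all genes 0.16). The SMAD regulator gene Skil, at 46.0 CPM in TdLN, 23.7 in PBMC and 21.0 in the memory library, was the 1 gene of 7 at least 2-fold higher, against 4.0% of all genes. Smad7, an inhibitor induced by the pathway, was at 200 CPM in TdLN, 141 in PBMC and 107 in the memory library, and Tgfb1 at 90.2, 52.3 and 51.9. In PBMC over memory and in TdLN over PBMC 6 of 7 were higher (medians 0.17 and 0.32, all genes 0.04 and 0.11), and 0 were at least 2-fold apart, a count near the all-gene shares given above. Whether TGF-beta signalling bears on Itgae in these libraries was not tested.

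Residency genes did not follow Itgae and Itga1 as a group. The list holds 17 names, of which 15 were in the files. In TdLN over memory, 7 were measured, with Cd69 (386 CPM in TdLN, 153 in PBMC, 63.8 in memory), Rgs1 (82.9, 56.9, 20.2) and Rgs2 (30.3, 17.0, 12.1) at least 2-fold higher (4.0% of all genes) and Cxcr6 (70.6, 98.9, 186) lower (1.86%). Across the 3 libraries, the early activation gene Cd69 was thus highest where Itgae was, and the chemokine receptor gene Cxcr6 where Itga1 was. Within TdLN, cells with and without an Itgae UMI differed little in Cd69 (429 against 410 CPM, ratio 1.05, 0.98 to 1.12). Cxcr6 was higher in those with one (105 against 73.0 CPM, ratio 1.44, 1.25 to 1.66). In PBMC over memory, Bhlhe40, Rgs1 and Cd69 of the 7 measured stood higher by 2-fold or more (1.69% of all genes), and Xcl1 lower (0.617%). Of the circulation and lymph node homing genes, Ccr7 (184 CPM in TdLN, 200 in PBMC, 69.8 in memory) and Lef1 were at least 2-fold higher in TdLN than in memory and Il7r, whose protein was part of the memory gate, lower, among 10 measured (4.0% and 1.86% of all genes). The sphingosine receptor gene S1pr5 (0.568, 42.8 and 9.36 CPM) and the fractalkine receptor gene Cx3cr1 (0.277, 118 and 3.65) were among the 5 of 12 at least 2-fold lower in TdLN than in PBMC (1.94% of all genes), as Itga4 was.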

How the data were processed

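The deposited files hold raw UMI counts for each gene in each barcode, from 10x Genomics 3' libraries of sorted CD8 T cells. Per the submitters' processing notes, the authors used Cell Ranger 3.1.0 and the mm10 genome. The deposited barcodes numbered 7503 for TdLN, 6165 for PBMC and 8321 for memory, and 6265, 5652 and 7003 passed the cell filter. Counts sit at the 3' end without correction for length, so levels were compared between libraries and not between genes.

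Cells of the 3 libraries were clustered together, without batch integration and without the 8 integrin genes, on 2000 variable genes, 30 principal components and 15 neighbours (scikit-learn 1.9.0), with Leiden resolution 0.8 (leidenalg 0.10.2). A cluster took a name with at least 3 markers at 1.5-fold or more, a rule set after the clusters were seen. Clusters named for another cell type were left out where their Cd3e level was also under 50% of that over all cells, and so were cells with at least 5% immunoglobulin counts, both rules chosen after seeing the data. They removed 174 TdLN, 20 PBMC and 9 memory cells, and kept cluster 9, T cells of low depth with plasma cell genes. Doublets were not removed, and an alternative left out the 5% of cells per library with the highest simulated doublet score.

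Ratios of summed counts have exact conditional binomial intervals (scipy 1.17.1), checked on simulated counts. All 8 genes were described. From each list up to 4 genes at 20 CPM or more were named by ratio, from cells with and without a UMI the 8 highest and 5 lowest genes at 50 CPM or more, and 5 genes most like a member in pattern. TMM scaling used edgeR 4.0.16. Alternatives changed the cells kept, the scaling, the thinning depth, the thresholds and the clustering. The genes and lists were chosen with earlier results of these data known. A few of the genes that these rules and the marker lists name are not reported here.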

Additional observations from a re-analysis of the deposited data

How the results depend on the processing

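In TdLN over memory, Itgae stayed between 3.36 and 3.89, Itga1 between -6.16 and -5.23 and Itga4 between -2.70 and -2.43 on the log2 scale in 14 alternative settings. Their counts as genes at least 2-fold apart depended on the level minimum, since Itgae was just above 20 CPM in TdLN. The count of higher genes, 1 in TdLN over memory and 1 in TdLN over PBMC, was 0 in both with the stricter cell filter (1000 or more genes, no more than 5% mitochondrial counts), without cluster 5 and with a 100 CPM minimum. With the stricter filter Itgae was at 19.3 CPM in TdLN. Itgb1 was then at 102 CPM in TdLN and 219 in memory, a log2 ratio of -1.10, which passes 2-fold. With the 100 CPM minimum the count of lower genes was 1 in TdLN over memory, in place of 2, and 0 in PBMC over memory, in place of 1. In PBMC over memory it was 3 without the effector-named clusters and 2 in cells with Trbv13-3 alone. In TdLN over PBMC, where it was 1, it was 2 with equal weight per cell, with a 1.5-fold threshold and with a 5 CPM minimum. Itgav in TdLN over PBMC and Itgb7 in TdLN over memory changed sign near 0. The highest share of Itgae cells in a TdLN cluster went from 14.4% to 8.55% at resolution 0.4. Settings without cluster 5, 9 or 11 or without cells with a platelet UMI were chosen after seeing the data. No paired analysis was possible because each group had 1 library. Shares near 1% at 4200 UMIs are limited by depth, and variation between mice could not be estimated.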
